A study of Mus musculus with 12 samples.

Results

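The annexins are the genes *Anxa1*, *Anxa2*, *Anxa3*, *Anxa4*, *Anxa5*, *Anxa6*, *Anxa7* and *Anxa11*, 8 of the 12 annexin genes among the 55536 genes counted in RNA-Seq of mouse cerebellum and cerebral cortex. They were taken by family name, except that *Anxa1* and *Anxa2* were chosen by their measured levels, which were higher in *Snx14*-KO than in WT cerebella. For this pair, the difference between genotypes in cerebellum is therefore given as a description with no test. Bulk tissue (labelled as a mix of cell types) was dissected from 1-month-old mice of 2 genotypes. WT mice carried no mutation, while *Snx14*-KO mice lacked the sorting nexin *Snx14* in the whole body through a frameshifting loss of a single base introduced by CRISPR in C57BL/6J embryos. Each of the 4 groups (WT cerebellum, *Snx14*-KO cerebellum, WT cortex and *Snx14*-KO cortex) held 3 libraries, each from 1 mouse by its label, and the sex of each mouse is not given in the sources used here.

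Annexins are cytosolic proteins that bind negatively charged phospholipids, above all phosphatidylserine, when calcium is bound by their conserved core. The core is much alike across the family, and the tail before it differs from member to member and sets the partners, which include small S100 proteins. Annexins line the inner face of the plasma membrane and of endosomes, take part in vesicle traffic and in the sealing of torn membranes, and in the brain are prominent in glia, vessels, meninges and selected neurons. *Anxa1* is known as a glucocorticoid-induced brake on inflammation that acts through formyl peptide receptors. *Anxa2* pairs with *S100a10* and serves as a surface site for plasminogen activation. *Anxa5* binds phosphatidylserine so tightly that it is used as a probe for dying cells.

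The beginnings of 3 coding sequences are shown because the tail is where the members part ways. They were read from the GENCODE transcripts of build GRCm38, run 5′ to 3′ over the first 60 coding bases, and carry the start codon in capitals.
Anxa1: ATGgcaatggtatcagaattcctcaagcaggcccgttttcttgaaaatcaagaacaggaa
Anxa2: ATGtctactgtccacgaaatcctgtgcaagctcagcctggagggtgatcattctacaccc
Anxa5: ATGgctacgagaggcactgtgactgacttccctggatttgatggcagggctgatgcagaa
The *Anxa1* stretch lies in exon 3 on the minus strand (chr19:20384699-20384758). That of *Anxa2* spans exon 2 (chr9:69464477-69464524) and exon 3 (chr9:69467291-69467302) on the plus strand. The *Anxa5* stretch holds the 3 bases of the start codon in exon 2 (chr3:36475430-36475432) and continues in exon 3 (chr3:36465279-36465335) on the minus strand. Over the whole coding sequences, the longest run of identical bases shared by any pair of the 8 members was 18 bases, between *Anxa3* and *Anxa11*. The coding sequence was 957 to 1509 bases in 7 members and 2019 bases in *Anxa6*, whose protein holds a doubled core.

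Positions of the members in GRCm38 are as follows. *Anxa1* lies on the minus strand of chromosome 19 (chr19:20373428-20390944) and *Anxa2* on the plus strand of chromosome 9 (chr9:69453620-69491795). *Anxa3* lies at chr5:96793339-96845966 (plus strand), *Anxa4* at chr6:86736840-86793584 (minus strand), *Anxa5* at chr3:36448923-36475894 (minus strand) and *Anxa6* at chr11:54979108-55033445 (minus strand). *Anxa7* (chr14:20455260-20480133, minus strand) and *Anxa11* (chr14:25842156-25886804, plus strand) share a chromosome. Of their counted exon bases, 2.63% in *Anxa2*, 3.07% in *Anxa3*, 1.61% in *Anxa4* and 2.73% in *Anxa11* are also exon of another gene, where a read pair was counted for both without regard to strand. *Anxa1*, *Anxa5*, *Anxa6* and *Anxa7* share none.

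Promoter windows of 300 bases, 250 before and 50 after the RefSeq start site (build GRCm38.p6), were matched by symbol for 6 of the 8 members, with *Anxa3* and *Anxa6* unmatched. They were searched on both strands for the TATA box (TATAAA), the CCAAT box (CCAAT), the GC box (GGGCGG) and the AP-1 site (TGANTCA). Stretches of 30 bases around the TATA boxes and the AP-1 match of *Anxa1* and *Anxa2* are shown, since this is the pair chosen for a shared direction in *Snx14*-KO cerebella, with the matched letters in capitals.
Anxa1 TATA box: cagttcatatccTATAAAatcaggagtcca
Anxa2 TATA box: ggatggggcgggTATAAAagccccacccag
Anxa2 AP-1 site: tccaagttggaTGAGTCAcccagcagggtg
*Anxa1* and *Anxa2* were the members with a TATA box in the window, which began 32 bases before the start site in *Anxa1* (chr19:20390686-20390715, minus strand) and 17 bases before it in *Anxa2* (chr9:69453654-69453683, plus strand). Of all 32851 promoter windows in the table, 13.6% held this motif. The AP-1 match of *Anxa2* (chr9:69453577-69453606, plus strand) began 95 bases before the start site, and 7.81% of all windows held one. *Anxa2* also had 3 GC boxes, a motif in 35.7% of all windows, and *Anxa1* had none. In GENCODE, both TATA stretches lie in the 5′ UTR of the first exon of a transcript that starts further upstream, and the AP-1 stretch lies upstream of *Anxa2*. No window of the 6 matched members held a CCAAT box, which 37.4% of all windows held, and no motif overlapped another. These matches describe letters and not bound sites.

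Read pairs were counted on genes, and library totals ran from 16672589 to 19887427. Levels are CPM, the counts of a gene per 1000000 counts of its library, with library totals scaled by edgeR's TMM factors over the 12 libraries. The mutated gene was checked first, with *Snx14* at 63.6 to 67.0 CPM in WT and 10.4 to 11.2 CPM in *Snx14*-KO cerebella, and at 53.6 to 59.8 CPM in WT and 7.69 to 8.50 CPM in *Snx14*-KO cortices. The tissues carried their labels' markers, since 8 of 8 granule cell and 10 of 10 Purkinje cell genes were higher in WT cerebellum (28.2% of all genes) and 9 of 10 cortical excitatory neuron genes were higher in WT cortex (29.2% of all genes) at an adjusted p under 0.05 (edgeR). The remaining gene of the cortical list, *Neurod2*, was higher in WT cerebellum (log2 fold change 0.30, edgeR adjusted p = 0.0167). Some libraries stood apart. *Snx14*-KO cortex replicate 2 had a summed level of 15 meningeal fibroblast genes of 455 CPM, against 123 to 181 CPM in the other 5 cortices, and its 10 oligodendrocyte genes summed to 5742 CPM, against 7516 to 8526 CPM. *Snx14*-KO cerebellum replicate 3 had 758 CPM over 14 microglia and macrophage genes, against 263 to 330 CPM in the other 5 cerebella. The 9 choroid plexus genes summed to between 83.7 and 7480 CPM in WT cerebella.

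**Figure D1:**
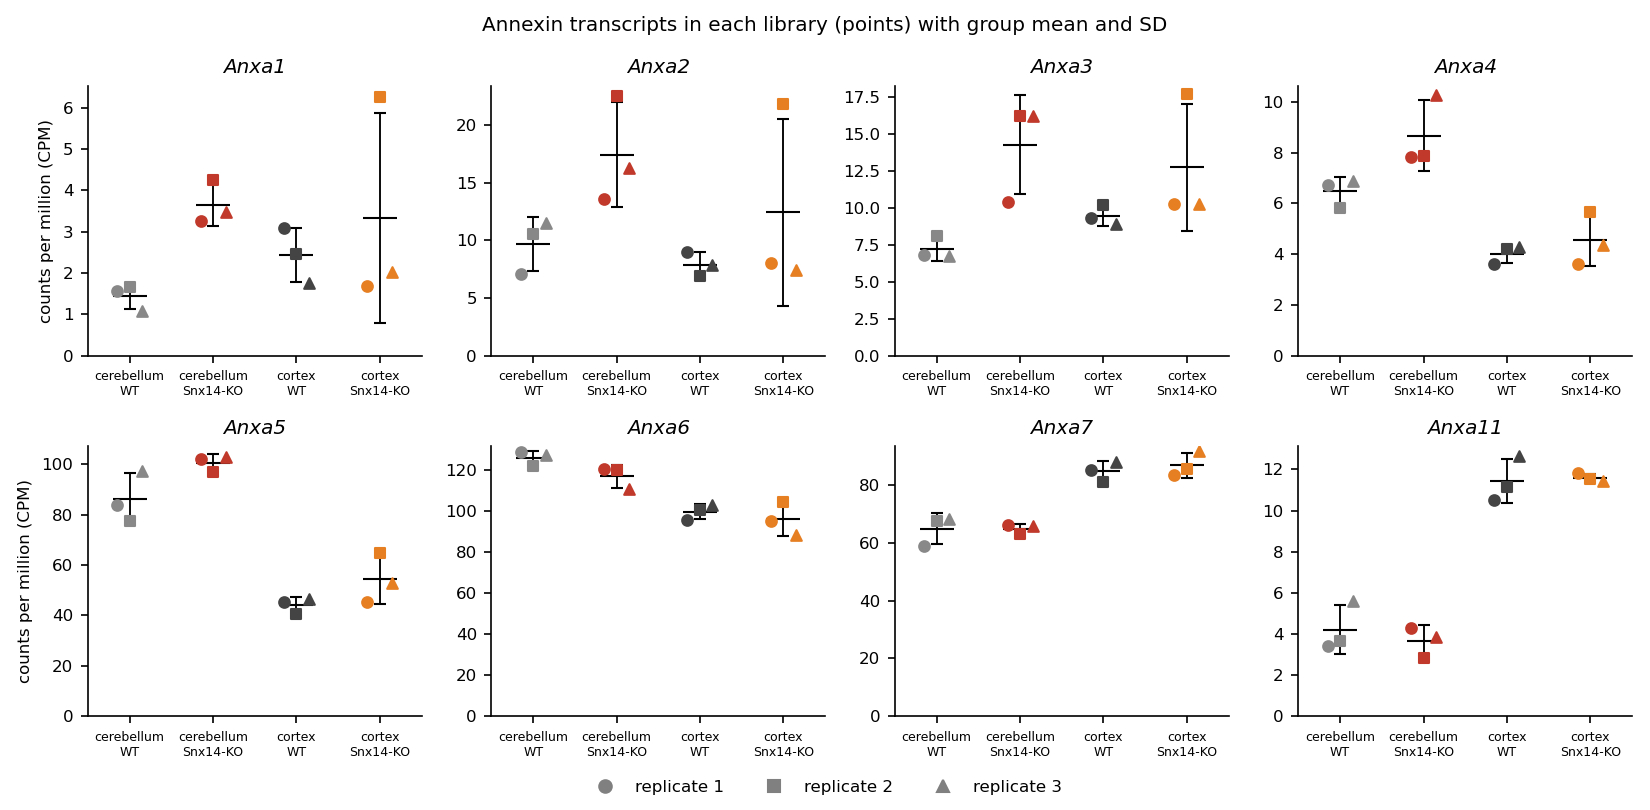
Level of each annexin in each library, in CPM on linear axes that start at 0 and differ between genes, with group means (horizontal marks) and SD (bars) over 3 libraries. *Anxa1* to *Anxa4* show the *Snx14*-KO cerebella above the WT cerebella, and *Snx14*-KO cortex replicate 2 (square) stands above the other cortices for *Anxa1* to *Anxa5*.

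A few annexins made up most of the family's transcript level, and the order differed between tissues. Divided by the counted exon length, *Anxa5* led WT cerebellum with 48.5 ± 5.75 CPM per kb (SD, n = 3), and *Anxa6*, a regulator of endosomal cholesterol and membrane traffic, followed with 43.0 ± 1.18 CPM per kb. The ranges of these neighbours overlapped. *Anxa7*, first known for fusing secretory granules, followed them at 10.8 ± 0.874 CPM per kb, below the range of both. The other members lay far lower, with *Anxa2* at 2.60 ± 0.626, *Anxa3* at 1.97 ± 0.211, *Anxa4* at 1.39 ± 0.122, *Anxa11* at 1.02 ± 0.291 and *Anxa1* at 0.493 ± 0.109 CPM per kb. Among these, the ranges of *Anxa2* and *Anxa3* overlapped, as did those of *Anxa4* and *Anxa11*, and *Anxa1* lay below all other members.

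WT cortex was led by *Anxa6* at 34.0 ± 1.30 CPM per kb (SD, n = 3), ahead of *Anxa5* at 24.8 ± 1.84 and *Anxa7* at 14.2 ± 0.586, with no overlap between them. *Anxa11*, which tethers RNA granules to lysosomes, held the fourth place at 2.77 ± 0.262 CPM per kb, level within range with *Anxa3* at 2.60 ± 0.185 CPM per kb. *Anxa2* followed at 2.12 ± 0.283 CPM per kb. *Anxa4* and *Anxa1* were lowest, at 0.866 ± 0.0770 and 0.838 ± 0.226 CPM per kb, with overlapping ranges. Of the summed annexin level per length, *Anxa5*, *Anxa6* and *Anxa7* held 44.1%, 39.2% and 9.88% in WT cerebellum and 30.2%, 41.4% and 17.2% in WT cortex.

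**Figure D2:**
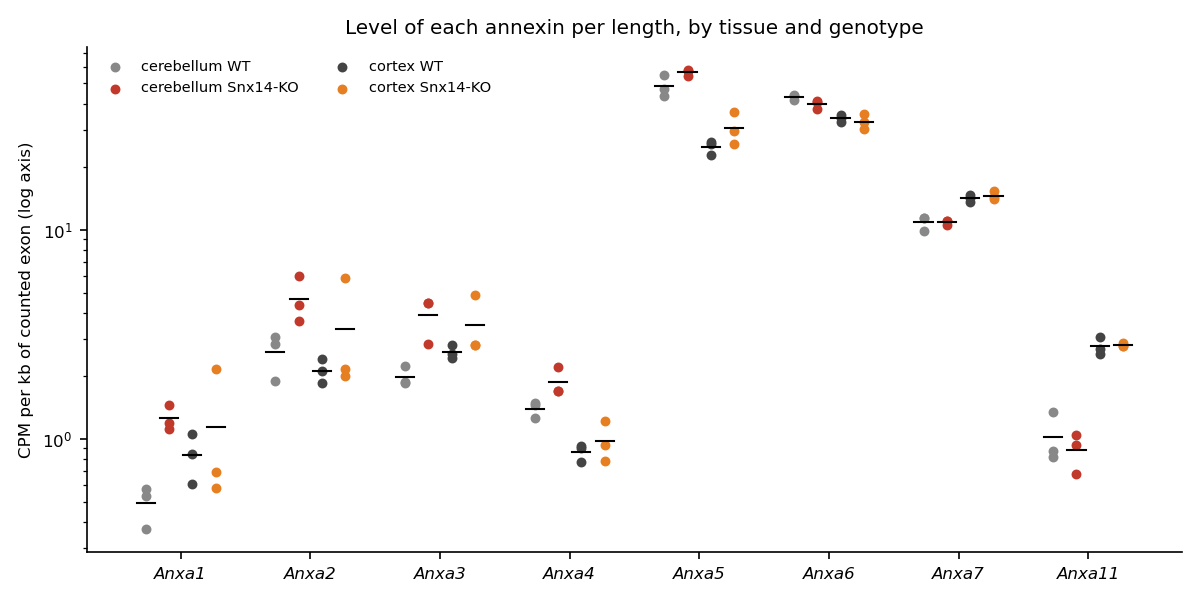
Annexin levels per kb of counted exon on a log axis, with 1 point per library and a horizontal line at the mean of 3 libraries for each tissue and genotype. *Anxa5*, *Anxa6* and *Anxa7* lie at 9.84 CPM per kb or above in every library, and the other 5 members lie at 6.03 CPM per kb or below.

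Where the annexins are high without the mutation was examined by comparing WT cerebellum with WT cortex. The fit did not pair same-numbered libraries of the 2 tissues. In bulk tissue, fewer cells of a type and less RNA per cell cannot be told apart. Among the 6 members other than *Anxa1* and *Anxa2*, *Anxa4*, *Anxa5* and *Anxa6* were higher in cerebellum, and *Anxa3*, *Anxa7* and *Anxa11* were lower, at an adjusted p under 0.05 by edgeR. The same holds for 57.4% of the 18543 genes tested in this comparison, 28.2% higher and 29.2% lower in cerebellum, so that a tissue difference is common among genes. The 2 groups did not overlap for any of the 6, as for 64.4% of all genes. Past a log2 fold change of 0.5 as well, 3 of the 6 remained (*Anxa4*, *Anxa5* and *Anxa11*), against 40.4% of all genes.

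*Anxa11* had the widest tissue difference of the 8 members. It was at 3.39, 3.64 and 5.58 CPM in the 3 WT cerebella and at 10.5, 11.2 and 12.6 CPM in the 3 WT cortices. All cortices lay above all cerebella, and the log2 fold change, cerebellum over cortex, was -1.44 with a standard error (SE) of 0.201 (edgeR adjusted p = 0.000130, after Benjamini and Hochberg over all genes tested). *Anxa5* showed the opposite pattern, with 83.7, 77.6 and 97.5 CPM in WT cerebella and 45.4, 40.4 and 46.6 CPM in WT cortices. Its groups did not overlap either, and its log2 fold change was 0.97 with an SE of 0.0957 (edgeR adjusted p = 9.09e-06).

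*Anxa4*, best known from secretory epithelia, was at 6.73, 5.83 and 6.87 CPM in WT cerebella and 3.61, 4.19 and 4.27 CPM in WT cortices, a log2 fold change of 0.69 with an SE of 0.166 (edgeR adjusted p = 0.00472). *Anxa6* was at 129, 122 and 127 CPM in WT cerebella and 95.6, 100.4 and 103 CPM in WT cortices, a log2 fold change of 0.34 with an SE of 0.0621 (edgeR adjusted p = 0.000807). Both were higher in every WT cerebellum than in any WT cortex. *Anxa7* was at 58.9, 67.7 and 68.2 CPM in WT cerebella against 85.2, 81.1 and 88.1 CPM in WT cortices, a log2 fold change of -0.38 with an SE of 0.0755 (edgeR adjusted p = 0.00145). Of these 6, *Anxa3* had the smallest tissue difference relative to its error, at 6.78, 8.08 and 6.71 CPM in WT cerebella and 9.30, 10.2 and 8.88 CPM in WT cortices. Its log2 fold change was -0.39 with an SE of 0.144 (edgeR adjusted p = 0.0382), and 7 of 11 alternatives put the adjusted p over the threshold, DESeq2 among them (0.0649).

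*Anxa1* and *Anxa2* are given without a test in this comparison, because the WT cerebella also entered the comparison by which they were picked. *Anxa1* was at 1.56, 1.67 and 1.07 CPM in WT cerebella and 3.08, 2.47 and 1.76 CPM in WT cortices, which did not overlap, a log2 fold change of -0.76 with an SE of 0.298. *Anxa2* was at 7.06, 10.6 and 11.5 CPM in WT cerebella and 8.98, 6.87 and 7.86 CPM in WT cortices, which overlapped, a log2 fold change of 0.30 with an SE of 0.196.

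To see how the family stood without *Snx14* at this age, *Snx14*-KO and WT cerebella were compared. *Anxa1* and *Anxa2*, the picked pair, were higher in every *Snx14*-KO cerebellum than in any WT cerebellum. *Anxa3* and *Anxa4*, taken by family name, had the same order of libraries. *Anxa5* overlapped, and *Anxa6*, *Anxa7* and *Anxa11* had log2 fold changes between -0.19 and 0.014. All members were chosen with earlier results of these data known, so *Anxa3* and *Anxa4* are not independent of the pair. Of the 18201 genes tested, 6.22% had all *Snx14*-KO cerebella above all WT cerebella and 6.32% had them all below. By edgeR, 0 of the 6 members with a test passed an adjusted p of 0.05 and a log2 fold change of 0.5, while 0.00549% of all genes did, which is *Snx14* alone. At an unadjusted p under 0.05, 3 of the 6 were higher (*Anxa3*, *Anxa4* and *Anxa5*) and 0 were lower, against 5.78% of all genes higher and 2.37% lower. With 1 library left out the count was 1 to 3, and it was 1 without *Snx14*-KO replicate 3, the library with the high microglial sum, or without WT replicate 2. DESeq2 called 1 of the 6, *Anxa3*, and 0.901% of all genes.

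*Anxa1* was at 3.25, 4.25 and 3.47 CPM in *Snx14*-KO cerebella and 1.56, 1.67 and 1.07 CPM in WT cerebella. Every knockout lay well above the highest WT library, the means were 3.65 ± 0.523 and 1.43 ± 0.318 CPM (SD, n = 3), and the log2 fold change was 1.36 with an SE of 0.260, a 2.57-fold difference. These levels rest on 64 to 77 counts per knockout and 20 to 29 counts per WT library. With any 1 library left out, the log2 fold change ran from 1.18 to 1.48.

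*Anxa2* was at 13.6, 22.5 and 16.2 CPM in *Snx14*-KO cerebella and 7.06, 10.6 and 11.5 CPM in WT cerebella. The highest WT and the lowest *Snx14*-KO library were close, the means were 17.4 ± 4.58 and 9.70 ± 2.34 CPM (SD, n = 3), and the log2 fold change was 0.86 with an SE of 0.230, a 1.81-fold difference. Without *Snx14*-KO replicate 2, the highest library, it was 0.63.

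*Anxa3*, found in neutrophils, microglia and growing vessels, was at 10.4, 16.2 and 16.2 CPM in *Snx14*-KO cerebella and 6.78, 8.08 and 6.71 CPM in WT cerebella. Its knockout libraries all lay above the WT libraries, and the log2 fold change was 1.00 with an SE of 0.194, a 2.00-fold difference between means of 14.3 ± 3.37 and 7.19 ± 0.769 CPM (SD, n = 3). The adjusted p was 0.177 with edgeR and 0.00146 with DESeq2, so that the call depended on the tool. Testing all genes with a count instead of those passing edgeR's filter also gave a call (adjusted p = 0.00109, edgeR).

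*Anxa4* was at 7.84, 7.88 and 10.3 CPM in *Snx14*-KO cerebella and 6.73, 5.83 and 6.87 CPM in WT cerebella. The groups did not overlap, but the log2 fold change of 0.43 with an SE of 0.164 did not pass the test (adjusted p = 0.497 with edgeR and 0.665 with DESeq2), and it was 0.28 without *Snx14*-KO replicate 3. *Anxa5* was at 102, 96.8 and 103 CPM in *Snx14*-KO cerebella and 83.7, 77.6 and 97.5 CPM in WT cerebella. WT replicate 3 reached into the knockout range, and the log2 fold change was 0.24 with an SE of 0.0924 (edgeR adjusted p = 0.525). *Anxa6* was the single member with all knockouts below all WT cerebella, at 121, 119.9 and 111 CPM against 129, 122 and 127 CPM. The log2 fold change of -0.093 with an SE of 0.0644 did not pass the test (adjusted p = 0.823, edgeR).

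*Anxa7* was at 66.1, 63.0 and 65.8 CPM in *Snx14*-KO cerebella and 58.9, 67.7 and 68.2 CPM in WT cerebella, a log2 fold change of 0.014 with an SE of 0.0787 (edgeR adjusted p = 0.989). *Anxa11* was at 4.30, 2.81 and 3.85 CPM in *Snx14*-KO cerebella and 3.39, 3.64 and 5.58 CPM in WT cerebella, a log2 fold change of -0.19 with an SE of 0.260 (edgeR adjusted p = 0.944). Both pairs of groups overlapped throughout, and the sign changed without WT replicate 1 or *Snx14*-KO replicate 3 for *Anxa7* (down to -0.061) and without WT replicate 3 for *Anxa11* (0.070). Summed over the 6 members taken by family name, the cerebella held 307 to 312 CPM in *Snx14*-KO and 285 to 312 CPM in WT mice, most of it from *Anxa5*, *Anxa6* and *Anxa7*. WT replicate 3 had the highest of these sums. In *Snx14*-KO cerebella, the order per length put *Anxa1* (1.26 ± 0.180 CPM per kb) above *Anxa11* (0.884 ± 0.185 CPM per kb), the reverse of WT cerebella, and the other places were the same.

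**Figure D3:**
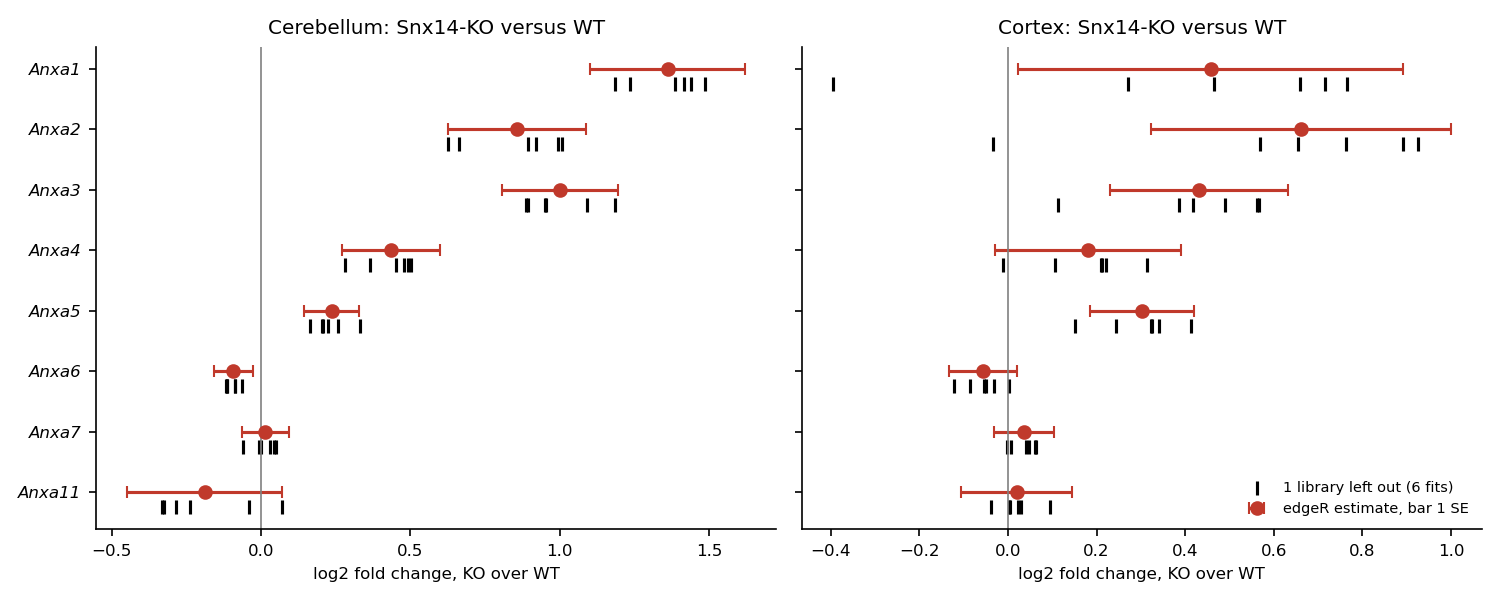
Log2 fold change, *Snx14*-KO over WT, of each annexin in cerebellum (left) and cortex (right), with bars of 1 standard error from edgeR and ticks for the 6 fits that each leave out 1 library. In cerebellum, *Anxa1*, *Anxa2* and *Anxa3* stay at 0.63 or above in every such fit, while in cortex the ticks of *Anxa1*, *Anxa2* and *Anxa4* reach below 0 without *Snx14*-KO replicate 2. *Anxa1* and *Anxa2* were picked for their cerebellar values.

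The same comparison in cerebral cortex, whose libraries were not used to pick *Anxa1* and *Anxa2*, gave no annexin that passed in the fit to filtered genes. By edgeR, 0 of 8 members passed the adjusted p of 0.05, against 0.00548% of the 18255 genes tested, and DESeq2 called 0 of 8, against 0.0493%. At an unadjusted p under 0.05, 1 of 8 (*Anxa5*) was higher and 0 were lower by edgeR, against 2.24% of all genes higher and 2.26% lower. The adjusted p was 0.996 for each of the 8 (edgeR). The larger estimates rested on *Snx14*-KO replicate 2.

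*Anxa1* was at 1.69, 6.25 and 2.03 CPM in *Snx14*-KO cortices and 3.08, 2.47 and 1.76 CPM in WT cortices. Replicate 2 was the highest of all 12 libraries and the other 2 knockouts lay within the WT range or below it, so that the log2 fold change was 0.46 with an SE of 0.434 with replicate 2 and -0.40 without it. *Anxa2* followed the same course, at 8.003, 21.8 and 7.45 CPM in *Snx14*-KO cortices and 8.98, 6.87 and 7.86 CPM in WT cortices. Its log2 fold change was 0.66 with an SE of 0.339 with replicate 2 and -0.035 without it. Testing all genes with a count instead of those passing the filter gave *Anxa2* an adjusted p of 0.00971 (edgeR), with replicate 2 included. *Anxa3* was at 10.3, 17.7 and 10.3 CPM in *Snx14*-KO cortices and 9.30, 10.2 and 8.88 CPM in WT cortices. All *Snx14*-KO cortices lay above all WT cortices for *Anxa3*, as for 4.57% of all genes, by a margin that was narrow in replicates 1 and 3, and the log2 fold change was 0.43 with an SE of 0.201 with replicate 2 and 0.11 without it.

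*Anxa5* was at 45.3, 64.9 and 52.8 CPM in *Snx14*-KO cortices and 45.4, 40.4 and 46.6 CPM in WT cortices, a log2 fold change of 0.30 with an SE of 0.117 that was 0.15 without replicate 2. Replicates 2 and 3 lay above the WT range and replicate 1 within it. *Anxa4* was at 3.63, 5.65 and 4.35 CPM in *Snx14*-KO cortices and 3.61, 4.19 and 4.27 CPM in WT cortices, a log2 fold change of 0.18 with an SE of 0.210 that was -0.012 without replicate 2. The remaining members had log2 fold changes of -0.056 (*Anxa6*, -0.12 without replicate 2), 0.037 (*Anxa7*) and 0.020 (*Anxa11*). *Anxa6* was at 95.3, 104 and 88.2 CPM in *Snx14*-KO cortices and 95.6, 100.4 and 103 CPM in WT cortices. *Anxa7* was at 83.7, 85.5 and 91.9 CPM in *Snx14*-KO cortices and 85.2, 81.1 and 88.1 CPM in WT cortices. *Anxa11* was at 11.8, 11.5 and 11.4 CPM in *Snx14*-KO cortices and 10.5, 11.2 and 12.6 CPM in WT cortices. The groups overlapped for all 3 of these members.

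Whether the genotype difference itself differed between the tissues was tested over all 12 libraries. The fit treated them as independent and did not pair same-numbered libraries of the 2 tissues. By edgeR, 0 of the 6 members with a test passed, and 0 of 19380 genes did. At an unadjusted p under 0.05, 0 of the 6 members and 5.68% of all genes differed, and DESeq2 called 0 of the 6 and 0.201% of all genes. The difference, cerebellum minus cortex, was widest for *Anxa3* among the 6, at 0.56 on the log2 scale with an SE of 0.308 (edgeR adjusted p = 0.963). *Anxa4* was at 0.24 with an SE of 0.265, and *Anxa5*, *Anxa6*, *Anxa7* and *Anxa11* lay between -0.22 and -0.037. For *Anxa1* and *Anxa2*, whose cerebellar difference was the reason for their choice, the values were 0.89 with an SE of 0.588 and 0.18 with an SE of 0.484, given without a test. Without *Snx14*-KO cortex replicate 2, the difference was 1.74 for *Anxa1*, 0.88 for *Anxa2*, 0.87 for *Anxa3*, 0.43 for *Anxa4*, 0.068 for *Anxa5* and 0.013 for *Anxa6*. Without *Snx14*-KO cerebellum replicate 3, that of *Anxa4* was 0.100.

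Lists of partners and neighbouring pathways, chosen with earlier results of these data known, were summarised by counts and medians. In *Snx14*-KO cerebella, 0 genes of the S100 partner, EF-hand, plasminogen, membrane repair, phosphatidylserine and glucocorticoid lists passed an adjusted p of 0.05 by edgeR, and DESeq2 also called 0. Among all genes tested in cerebellum, *Snx14* alone passed by edgeR (0.00549%), and DESeq2 gave 1.13% an adjusted p under 0.05. The counts of 0 therefore do not set these lists apart. The median log2 fold change over all genes tested was -0.000616. *S100a10*, the light chain of the *Anxa2* complex, was at 27.8, 34.3 and 38.1 CPM in *Snx14*-KO cerebella and 32.2, 30.3 and 36.5 CPM in WT cerebella, a log2 fold change of 0.031 with an SE of 0.129 (edgeR adjusted p = 0.983). Its groups overlapped. *S100a11*, the partner of the *Anxa1* tail, was at 4.54, 6.40 and 6.45 CPM in *Snx14*-KO cerebella and 4.61, 4.90 and 5.05 CPM in WT cerebella, a log2 fold change of 0.27 with an SE of 0.190 (edgeR adjusted p = 0.825). It was 0.17 without *Snx14*-KO replicate 3 and 0.42 without *Snx14*-KO replicate 1. The median over the 5 S100 partners tested of 6 was 0.031, from -0.063 for *S100a6* to 0.33 for *S100a1* (the median was -0.062 without *Snx14*-KO replicate 3 and 0.12 without WT replicate 3), and 1 of the 5 was higher at an unadjusted p under 0.05, against 5.78% of all genes.

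The EF-hand list of *Anxa7* and *Anxa11* partners (3 of 3 tested) had a cerebellar median of 0.012. Its ends were -0.084 for *Sri*, which encodes sorcin, and 0.036 for *Pdcd6*, which encodes the calcium sensor ALG-2. The middle value is that of *Pdcd6ip*, which is on the list but is not an EF-hand protein. Of the 3 genes, 0 had an unadjusted p under 0.05. That median was -0.040 without WT replicate 1 and 0.038 without WT replicate 2. Of the list of *Anxa1* receptors and cytosolic phospholipase A2, the formyl peptide receptor genes *Fpr1*, *Fpr2* and *Fpr3* had too few counts to be tested in either tissue. *Pla2g4a*, the phospholipase that *Anxa1* is known to restrain, had a log2 fold change of -0.19 in cerebellum with an SE of 0.149 (edgeR adjusted p = 0.857) and 0.041 in cortex. The plasminogen system, which *Anxa2* serves, had 4 of 7 genes tested in cerebellum. The log2 fold change was 0.24 for *Plat* (tissue plasminogen activator), with an SE of 0.132 (edgeR adjusted p = 0.733), and 0.33 for *Serpine2*, an inhibitor of such proteases, with an SE of 0.131 (edgeR adjusted p = 0.533). *Plau* (urokinase) had 7 to 25 counts in WT and 27 to 89 counts in *Snx14*-KO cerebella, and *Plaur*, its receptor, had 0 to 18 and 6 to 24 counts. Since *Plau* reached the limit on low counts in every library of the *Snx14*-KO group alone, and *Plaur* of neither group, both are given by their counts and no median is given for the list.

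Of the membrane repair genes, 7 of 8 were tested in cerebellum, with a median of 0.24, from -0.003 for *Capn1* (a calpain) to 0.62 for *Dysf* (dysferlin), and 0 had an unadjusted p under 0.05. The median was 0.11 without WT replicate 1 and 0.44 without WT replicate 2. The 9 tested genes of phosphatidylserine exposure and recognition, the lipid signal that *Anxa5* binds, had a median of 0.14, from -0.25 for the receptor *Tyro3* to 0.64 for its ligand *Pros1* (protein S), with 3 of the 9 higher and 1 lower at an unadjusted p under 0.05, against 5.78% and 2.37% of all genes. The median was 0.060 without *Snx14*-KO replicate 3. The 10 glucocorticoid-responsive genes had a median of 0.24, from -0.17 for *Dusp1* to 0.90 for *Fkbp5*, with 1 of the 10 higher at an unadjusted p under 0.05 (5.78% of all genes), and the median was 0.060 without *Snx14*-KO replicate 3 and 0.47 without WT replicate 2.

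In cortex, *S100a11* was highest in the library that led *Anxa1* to *Anxa5*. *S100a11* was at 1.94, 6.64 and 1.55 CPM in *Snx14*-KO cortices and 1.59, 0.859 and 1.37 CPM in WT cortices, a log2 fold change of 1.42 with an SE of 0.503 (edgeR adjusted p = 0.996). Replicate 2 alone stood far above the rest, and leaving it out gave 0.45. This alternative for *S100a11* was chosen after seeing the data. *S100a10* was at 22.1, 26.4 and 23.4 CPM in *Snx14*-KO cortices and 25.7, 25.2 and 23.3 CPM in WT cortices, a log2 fold change of -0.043 with an SE of 0.0994. No cortical median is given for the S100 partners, since *S100a4* passed the filter on low counts through the group where it was higher. The median over all genes tested in cortex was 8.19e-05. The cortical medians of the EF-hand, membrane repair, phosphatidylserine and glucocorticoid lists lay between 0.012 for the EF-hand list and 0.11 for membrane repair. With 1 library left out, the median of the EF-hand list ran from -0.023 (without *Snx14*-KO replicate 3) to 0.040 (without WT replicate 3), and that of the glucocorticoid-responsive genes from -0.078 (without *Snx14*-KO replicate 3) to 0.19 (without *Snx14*-KO replicate 1). The membrane repair median of 0.11 was 0.20 without WT replicate 1. It includes *Trim72*, which reached the limit on low counts in every library of the WT group alone. The phosphatidylserine median of 0.10 was 0.024 without WT replicate 3 and 0.17 without *Snx14*-KO replicate 1. By edgeR 0 genes of these lists passed the adjusted p in cortex, as with DESeq2. Among all 18255 genes tested, 0.00548% passed by edgeR, and DESeq2 gave 3 higher and 13 lower genes an adjusted p under 0.05. At an unadjusted p under 0.05, 2 of 6 S100, 1 of 8 membrane repair and 1 of 9 phosphatidylserine genes were higher, against 2.24% of all genes, and 1 of 10 glucocorticoid-responsive genes was lower, against 2.26%. *S100a4*, which is 1 of the 2 S100 genes counted, reached the limit on low counts in all *Snx14*-KO cortices but not in all WT cortices, and is no support for that count.

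Cell marker lists, chosen with earlier results of these data known, were read beside the annexins. In cerebellum, all 15 meningeal fibroblast genes had higher estimates in *Snx14*-KO mice, with a median log2 fold change of 1.15, from 0.32 for *Lum* to 1.62 for *Fmod*, both proteoglycans of connective tissue. Of the 15, 0 passed the adjusted p by edgeR (0.00549% of all genes), and 12 were higher at an unadjusted p under 0.05 (5.78% of all genes). DESeq2 gave 10 an adjusted p under 0.05, against 1.13% of all genes. Because of how the list was chosen, these counts are a description and no independent test. Their summed level was 542 to 586 CPM in *Snx14*-KO and 202 to 411 CPM in WT cerebella, and no gene of the list was at 0 in any library. The part of meningeal tissue in the annexin differences was not tested.

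In cortex, several marker lists stood apart in *Snx14*-KO replicate 2, the library that was highest for *Anxa1*, *Anxa2*, *Anxa3*, *Anxa4* and *Anxa5* among cortices. The median log2 fold change of the meningeal fibroblast list was 0.69, and 0.16 without that library. The ependymal list is given no median, since *Tmem212* passed the filter on low counts through the *Snx14*-KO group alone. Its genes summed to 32.9 CPM in replicate 2 and to 22.7 to 24.7 CPM in the other cortices. The median of the astrocyte list was 0.17, and 0.048 without replicate 2. The largest estimate was that of *Gfap*, which reached 1047 CPM in *Snx14*-KO cortices and at most 198 CPM in WT cortices. The oligodendrocyte list was lower, with a median of -0.30, and -0.14 without replicate 2, which had the lowest summed level at 5742 CPM against 7516 to 8526 CPM in the other cortices. Higher at an unadjusted p under 0.05 were 9 of 15 meningeal fibroblast, 2 of 5 ependymal and 2 of 11 astrocyte genes, against 2.24% of all genes, and 8 of 10 oligodendrocyte genes were lower, against 2.26%. Of the 2 ependymal genes, *Tmem212* reached the limit on low counts in every library of the *Snx14*-KO group alone, and is no support for that count. By edgeR, 0 genes of these 4 lists passed the adjusted p in cortex (0.00548% of all genes), and DESeq2 also called 0. Over all 18255 genes tested, DESeq2 gave 3 higher and 13 lower genes an adjusted p under 0.05. Other lists also differed in cortex. Endothelial genes (10 of 10 with higher estimates, median 0.23) summed to 145 to 174 CPM in *Snx14*-KO and 121 to 153 CPM in WT cortices. Choroid plexus genes summed to 9.93 to 13.8 CPM in *Snx14*-KO and 17.9 to 143 CPM in WT cortices. Red blood cell genes summed to 62.3 to 92.5 CPM and 74.3 to 135 CPM. The part of these cell types in the cortical annexin values was not tested.

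Microglia and macrophage genes (14 of 14 with higher estimates in *Snx14*-KO cerebella) had a median of 0.67, from 0.20 for *P2ry12* to 2.20 for *Cd68*, and 0.24 without *Snx14*-KO replicate 3, the library with the highest sum. *Anxa3* was at 16.2 CPM both in that library and in replicate 2, and its log2 fold change without replicate 3 was 0.89. The part of microglia in the *Anxa3* difference was not tested. Astrocyte and Bergmann glia genes (9 of 11 with higher estimates) had a median of 0.25 in cerebellum, from -0.25 for *Fabp7* to 0.99 for *Gfap*, and 0.12 without *Snx14*-KO replicate 3, and their summed level was 7992 to 8959 CPM in *Snx14*-KO and 7155 to 7909 CPM in WT cerebella. The medians of the endothelial, mural, ependymal, oligodendrocyte, granule cell, Purkinje cell and cortical excitatory neuron lists lay between -0.28 (granule cells) and 0.17 (mural cells). Each of these 7 moved by over 1.5 times when 1 library was left out. The ependymal median ran from -0.50 without WT replicate 1 to 0.70 without WT replicate 3, the granule cell median from -0.40 without *Snx14*-KO replicate 2 to -0.15 without *Snx14*-KO replicate 1, and the mural median from 0.081 without WT replicate 1 to 0.32 without WT replicate 2. The endothelial median was lowest without *Snx14*-KO replicate 2 (0.074) and highest without *Snx14*-KO replicate 3 (0.24), and the oligodendrocyte median lay between -0.26 without WT replicate 3 and -0.059 without WT replicate 1. Purkinje cell genes had medians of -0.22 without WT replicate 3 to -0.011 without *Snx14*-KO replicate 3, and cortical excitatory neuron genes of -0.079 without WT replicate 3 to 0.023 without *Snx14*-KO replicate 2. The median of red blood cells was -0.59 (-0.078 without WT replicate 2 and -1.06 without *Snx14*-KO replicate 2) and that of choroid plexus was -0.71 (0.46 without WT replicate 3 and -1.28 without WT replicate 1), with summed levels that overlapped between genotypes in each. By edgeR, 0 genes of the lists in this paragraph passed the adjusted p in cerebellum, against 0.00549% of all genes. DESeq2 gave 2 an adjusted p under 0.05, against 1.13% of all genes. Of these 2, *Cbln1* of the granule cell list was lower and *Bcl11b* of the cortical excitatory neuron list was higher. At an unadjusted p under 0.05, 8 of 14 microglia and macrophage, 5 of 11 astrocyte, 2 of 10 endothelial, 1 of 8 mural and 1 of 7 cortical excitatory neuron genes were higher, against 5.78% of all genes. Lower at that threshold were 4 of 8 granule cell, 1 of 10 Purkinje cell and 1 of 7 cortical excitatory neuron genes, against 2.37% of all genes.

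**Figure D4:**
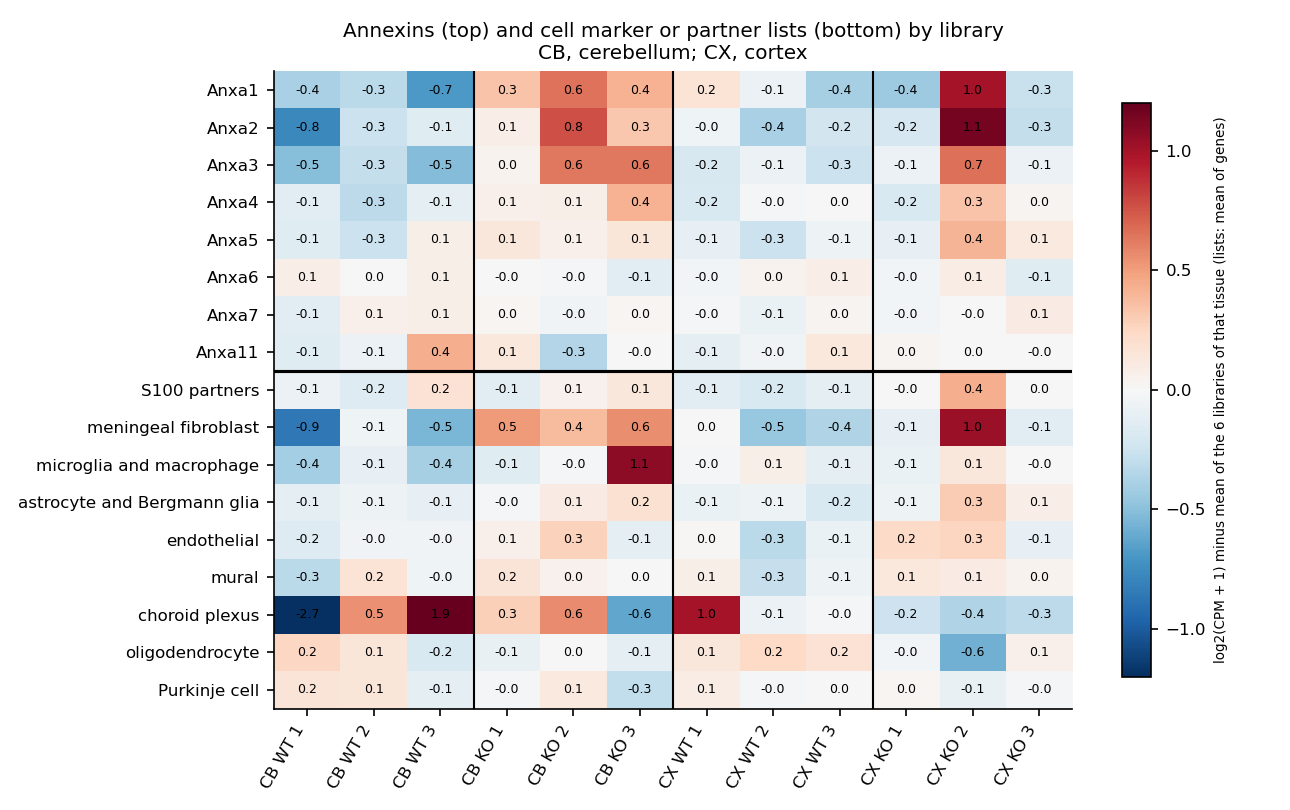
Log2(CPM + 1) of each annexin (top 8 lines) and mean over the genes of 9 partner or marker lists (bottom 9 lines) in each library, as the difference from the mean of the 6 libraries of that tissue (colour and printed number; colour is capped at 1.2). *Snx14*-KO cortex replicate 2 is at 1.0 for *Anxa1*, 1.1 for *Anxa2*, 0.7 for *Anxa3* and 1.0 for the meningeal fibroblast list.

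The genes whose pattern was most like that of *Anxa1* and *Anxa2* were sought over all 12 libraries among 19379 genes, by the root mean square difference in log2(CPM + 1) after centring on each tissue. Because this distance uses the cerebellar contrast by which the pair was picked, it is a description. The 5 nearest to *Anxa1* were *Mrc2* at 0.153, *Prrx2* at 0.167, *Ppic* at 0.181, *Slc26a7* at 0.182 and *Col12a1* at 0.184. *Mrc2*, a collagen-binding endocytic receptor, was at 16.8 to 18.7 CPM in *Snx14*-KO cerebella, 6.78 to 10.4 CPM in WT cerebella and 19.1 CPM in *Snx14*-KO cortex replicate 2, against 6.83 to 9.35 CPM in the other cortices. *Col12a1* encodes a fibril-associated collagen and *Prrx2* a mesenchymal homeobox factor.

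The 5 nearest to *Anxa2* were *Cped1* at 0.184, *Apol7d* at 0.195, *Ifitm2* at 0.197, *Osmr* at 0.199 and *Folr2* at 0.200. *Osmr*, the receptor subunit for oncostatin M, was at 9.66 CPM in *Snx14*-KO cortex replicate 2 and at 2.20 to 3.88 CPM in the other cortices. In cerebellum it was at 2.49 to 4.25 CPM in *Snx14*-KO and 1.62 to 1.78 CPM in WT mice. Within the family, *Anxa3* was the nearest member to both, ranked 18 for *Anxa1* and 24 for *Anxa2*. *Anxa2* ranked 43 for *Anxa1*, and *Anxa1* ranked 35 for *Anxa2*. *Anxa11* was the farthest member from both, ranked 17644 and 14992.

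The 4 annexin genes outside the group were low. *Anxa8* had 5 to 12 counts in WT and 19 to 27 counts in *Snx14*-KO cerebella. It passed the filter on low counts there through the group where it was higher, so it is given by its counts, with no test. It was too low to be tested in cortex, where *Snx14*-KO replicate 2 had 20 counts and the other libraries had 2 to 12. In WT cerebella *Anxa9* averaged 1.86 ± 0.721 CPM (SD, n = 3), against 1.82 ± 0.197 CPM in *Snx14*-KO cerebella (log2 fold change -0.017). It was higher in WT cerebellum than in WT cortex (log2 fold change 1.25, edgeR adjusted p = 0.0119). *Anxa10* had at most 1 count and *Anxa13* at most 4 counts in any library, and neither was tested.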

How the data were processed

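RNA-Seq libraries (total RNA, TRIzol, NEBNext Ultra kit) were made from cerebellum and cerebral cortex of 1-month-old mice. The authors mapped reads to GRCm38 with STAR, counted read pairs per gene with featureCounts (Subread 2.0.1) and deposited these raw counts with no normalization. Counting ignored the strand and gave a pair to every gene it overlapped. A group had 3 libraries of separate mice, and p-values measure the spread among these. From 81881 features, 26248 numbered features (at most 0.0632% of a library's counts) and 97 spike features were left out. No replicate pair was identical (chi-square per gene at least 4.72).

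Genes passing filterByExpr were tested with edgeR 4.0.16 (R 4.3.3, TMM, quasi-likelihood test, Benjamini-Hochberg adjustment over all genes tested), and with DESeq2 1.42.0 as an alternative. Genes were called at an adjusted p under 0.05 with a log2 fold change beyond 0.5 either way, and a standard error is the fold change over the square root of F. The tests were checked on simulated counts. All 8 members passed the filter in every comparison. Levels of different genes were compared per kb of counted exon. The named genes were *Snx14*, the annexins, *S100a10*, *S100a11*, the genes of lowest and highest log2 fold change in each list discussed, *Pla2g4a*, *Pdcd6ip* and the 5 genes nearest to *Anxa1* and to *Anxa2*. Members and lists were chosen with earlier results of these data known. The labels give the same mouse number to both tissues, and same-numbered libraries of the 2 tissues correlated at 0.0731 to 0.159 (WT) and 0.0178 to 0.338 (*Snx14*-KO) in their deviations from the group means. Sequences came from RefSeq and GENCODE tables. Alternatives were other scaling factors, DESeq2, no filter, 1 fit over all libraries, a replicate block and leaving out each library.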

Additional observations from a re-analysis of the deposited data

How the results depend on the processing

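Counts of genes past both thresholds depended on the tool and the filter. In cerebellum, 1 gene passed by edgeR, 164 with DESeq2, 347 with all genes with a count and 45 with all 12 libraries in 1 fit. Leaving out 1 library gave 1 to 254, the highest without *Snx14*-KO replicate 2, the others at most 10. In cortex, 1 gene passed, against 9 with DESeq2, 149 with all genes, 2 with all libraries in 1 fit and 1 to 2 with 1 library left out. For the tissue difference in the genotype effect, 0 genes passed, against 39 with DESeq2, 386 with all genes and 0 to 253 with 1 library left out (highest without *Snx14*-KO cerebellum replicate 2). For WT cerebellum versus WT cortex, 7496 genes passed, and 7213 to 8504 across alternatives. The cause of these shifts was not tested. With the replicate block, 1, 1, 7449 and 0 genes passed in these 4 comparisons (cerebellum, cortex, WT tissues and tissue difference), and no annexin call changed; between genotypes the numbers do not pair animals.

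Several annexin differences changed sign when 1 library was left out, the largest cortical estimates, those of *Anxa2* and *Anxa1*, among them. In cerebellum these were *Anxa7* (-0.061 to 0.049) and *Anxa11* (-0.33 to 0.070). In cortex they were *Anxa1* (-0.40 to 0.76), *Anxa2* (-0.035 to 0.92), *Anxa4* (-0.012 to 0.31), *Anxa6* (-0.12 to 0.0020), *Anxa7* (-0.0024 to 0.064) and *Anxa11* (-0.037 to 0.095). For the tissue difference they were *Anxa2* (-0.080 to 0.88), *Anxa5* (-0.19 to 0.068), *Anxa6* (-0.11 to 0.013), *Anxa7* (-0.10 to 0.0034) and *Anxa11* (-0.36 to 0.040). In cerebellum, *Anxa3* to *Anxa6* kept their direction under all 11 alternatives. So did *Anxa1* and *Anxa2*, which were picked for it, so that this is no sign of stability. In cortex, *Anxa2* passed the adjusted p with all genes with a count (0.00971, edgeR). Between WT tissues, *Anxa4*, *Anxa5*, *Anxa6*, *Anxa7* and *Anxa11* stayed past the adjusted p in all 11 of theirs. The order of members per length was the same in TPM. With 20 to 114 counts per library, *Anxa1* carries the widest counting error of the 8.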

Other observations

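Read as 6 mice sampled in both tissues, the ratio of cerebellar to cortical level held its direction for 5 annexins in every mouse. *Anxa11* was at 0.24 to 0.44 of its cortical CPM in cerebellum and *Anxa7* at 0.69 to 0.84. *Anxa6* was at 1.15 to 1.35 and *Anxa5* at 1.49 to 2.25, and *Anxa4* was also above its cortical level in every mouse, at 1.39 to 2.36. *Anxa1* was, with *Anxa2* and *Anxa3*, among the members whose ratio fell on different sides of 1, at 0.51, 0.68 and 0.61 in the WT mice and 1.93, 0.68 and 1.71 in the *Snx14*-KO mice. Since *Anxa1* and *Anxa2* were picked by their cerebellar levels, which enter this ratio, their ratios are a description and no sign of a genotype effect. Knockout mouse 2, whose cortex was the highest library for *Anxa1*, had a ratio next to that of WT mouse 2.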
